A study of Mus musculus with 12 samples.

Results

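The progression of the peroxide response was taken as the 4 samples exposed to 100 µM hydrogen peroxide for 8 h set against the 4 samples exposed to it for 1 h, which are 8 of the 12 samples of the series. All 15478 genes of the authors' deposited table of differential expression were used, and the members were chosen by exposure time and by no measured value. Cells were undifferentiated primary neural precursor cells, grown from female adult C57BL/6 mice aged 5 to 12 weeks. The other group of the series, 4 control samples, received phosphate-buffered saline as a sham exposure, and its comparisons are used here only to say where each gene stood before. Per the design text, 4 animals each gave an 8 h, a 1 h and a control culture, so the exposure times share animals. The labels give 1 control group and not its collection time, so longer exposure and longer time in culture cannot be told apart.

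Hydrogen peroxide is a diffusible oxidant that cells make themselves and that neural stem cells meet during inflammation. Its entry sets off mitogen-activated kinases, which switch on immediate-early transcription factors within minutes, and damages DNA, which stabilises the transcription factor p53. It also oxidises KEAP1, which frees NRF2 to switch on antioxidant genes, and over hours p53 acts through the inhibitor p21 to keep RB family proteins and the DREAM complex on promoters of cell cycle genes.

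A positive log2 fold change below means a level higher after 8 h than after 1 h unless control is named. The authors' deposited table gives 1 such value per gene and comparison and no value for single samples. The error after ± is an implied standard error, computed here from the authors' fold change and likelihood ratio. A gene was called where the authors' adjusted p was below 0.05. Outlier samples were removed by the authors, per the file names, so the number per group is at most 4 and is not stated. Whether the authors' model had a term for the animal is not stated either, and every call, adjusted p and implied standard error below depends on that choice.

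The marker genes of neural precursor cells were at high levels. On a scale of log2 CPM per kilobase, averaged over all samples and divided by summed exon length, the authors' deposited table puts Nes at 7.91, Sox2 at 7.39 and Egfr at 4.07. Other cell types were represented unevenly. On the same scale the myelin gene Mbp stood at 7.18, the astrocyte genes Gfap and Aqp4 at 3.87 and 3.82, the ciliated cell regulator Foxj1 at 3.61, the myelin gene Mog at 0.66 and the neuronal gene Snap25 at 0.43 in the authors' deposited table. The neuronal gene Rbfox3 and the microglial gene P2ry12 were near the floor, at -1.80 and -0.97 in the authors' deposited table. The other defining markers looked for, Tmem119, Cdh5, Cldn5 and Tmem212, are not among the genes of the authors' deposited table. In such bulk RNA, fewer cells of a type and less RNA per cell cannot be told apart.

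Between 1 h and 8 h most measured genes moved, and the falls were larger than the rises. Of 15478 genes, 4687 were higher after 8 h than after 1 h (30.3%) and 5021 were lower (32.4%). Past a 2-fold change, 261 genes were higher and 1439 lower. Of 1436 such lower genes with an annotated position, 941 averaged under 2 log2 CPM. With only genes averaging at least 1 log2 CPM, and changes of any size, 4452 were higher and 3903 lower. More genes were then higher than lower. Among called genes the middle size of the change was 0.31 log2 units where they were higher and 0.56 where they were lower. The median over all genes was -0.01. Among the 5770 genes not called, 3304 had a 95% interval that lay within 0.32 of 0 on the log2 scale.

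Relative to control, the authors called 27.4% of genes higher and 28.2% lower at 8 h, against 20.5% higher and 22.2% lower at 1 h. Each gene was then placed by all 3 comparisons. Genes called at 1 h, called the other way from 1 h to 8 h and not called at 8 h are named early and returned. Opposite genes were called with one sign at 1 h and the other at 8 h, and were also called from 1 h to 8 h. Genes called the same way at both times were kept where the 95% interval of 8 h against 1 h stayed within 0.32 of 0 on the log2 scale, attenuated where they had moved back toward control, and extended where they had moved further away. Late genes were called at 8 h and from 1 h to 8 h but not at 1 h. The comparison of 8 h with 1 h shares its 1 h samples with one of the comparisons with control and its 8 h samples with the other, so the class counts describe the deposited calls and are not 3 independent results.

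What newly appeared by 8 h outnumbered what was kept. The late class held 3779 genes, of which 1721 were above and 2058 below control at 8 h. The early and returned class held 2062 genes, 1073 of them above and 989 below control at 1 h. A change of sign between the times was found for 1500 genes: 619 went above control and then below it, and 881 did the reverse. Kept genes numbered 1463, with 624 above and 839 below control. Of these, 524 were also called between 8 h and 1 h despite the narrow interval, and keeping them here leaves fewer genes to the classes that follow. Extended genes numbered 709, with 296 above and 413 below control, and attenuated genes 209, with 107 above and 102 below. The remaining 5756 genes fell in no class, and 3455 of them were called in no comparison. A call that was missed does not show a level equal to control: of the 2062 returned genes, 1385 had an 8 h interval within 0.32 of control on the log2 scale, and of the 3779 late genes, 2643 had such an interval at 1 h.

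**Figure D1:**
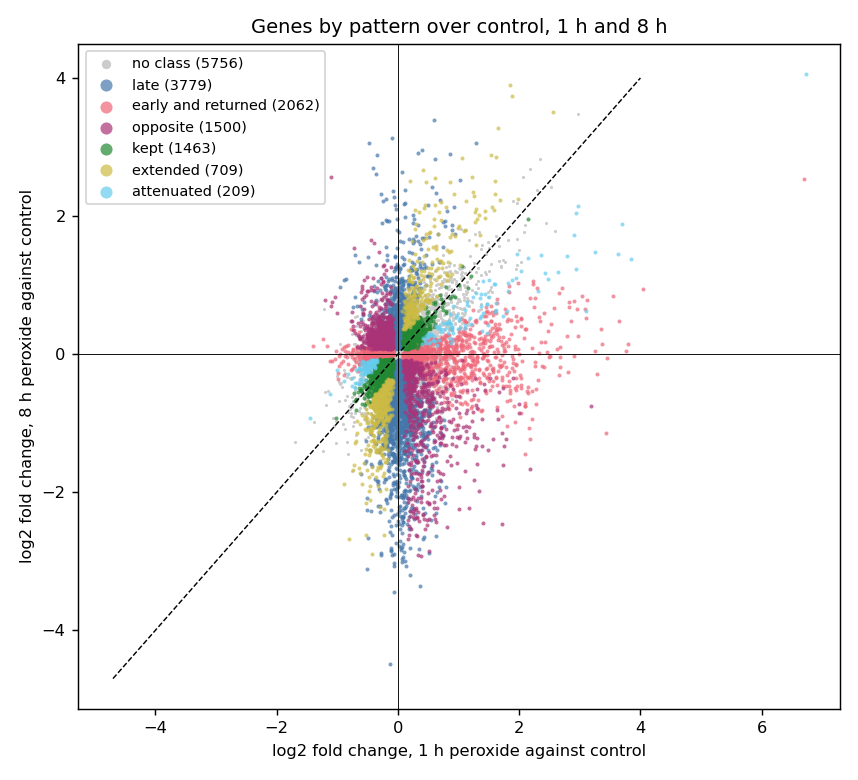
Log2 fold change against control of every gene after 1 h (horizontal axis) and 8 h (vertical axis) of peroxide in the authors' deposited table, coloured by pattern class with the number of genes in brackets; the dashed line marks equal values. Late genes lie along the vertical axis, returned genes along the horizontal axis, and the 1500 opposite genes in the upper left and lower right; both axes share the control samples.

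The highest rises from 1 h to 8 h included receptors, a kinase and a p53 effector. The authors' deposited table gives Tshr, the thyrotropin receptor, a log2 fold change of 3.67 ± 0.17 (adjusted p = 3.56e-102), the highest of the genes that the naming rule allowed. It lay at 2.56 against control at 8 h and at -1.10 at 1 h in the authors' deposited table, so it had dropped before it rose. Tcea3, a factor of the TFIIS elongation family, rose by 3.54 ± 0.20, and Ptk2b, the calcium-responsive kinase PYK2, by 3.23 ± 0.13 in the authors' deposited table. Neither was called at 1 h against control. Next in the authors' deposited table came Fam47e at 2.61 ± 0.25, the TGF-beta co-receptor Tgfbr3 at 2.47 ± 0.16, the phospholipid transfer protein gene Pltp at 2.35 ± 0.07 and the p53 effector Perp at 2.27 ± 0.11. Samd12 was at 2.26 ± 0.08 and the actin bundler Espn at 2.24 ± 0.11 in the authors' deposited table. Of the genes named here, 6 were late, Espn was extended, and Tshr and Samd12 were opposite.

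The 10 lowest values included genes that act in DNA replication, chromatin and mitosis. Pif1, a DNA helicase, fell by 4.36 ± 0.19 log2 units from 1 h to 8 h in the authors' deposited table (adjusted p = 1.29e-108), a 20.5-fold lower level. Among linker histones, H1f3 was at -3.94 ± 0.19 in the authors' deposited table; it stood at -0.75 against control at 8 h and 3.19 at 1 h. Next in the authors' deposited table were the guanine nucleotide exchange factor Arhgef39 at -3.73 ± 0.27, the CDK1-activating phosphatase Cdc25c at -3.40 ± 0.15, the spindle gene Troap at -3.23 ± 0.14, the kinetochore gene Ska1 at -3.17 ± 0.21 and the kinesin Kif14 at -3.12 ± 0.14. The nuclease gene Ankle1 was at -3.20 ± 0.18 and Mxd3, a MAX partner made in S phase, at -3.30 ± 0.18 in the authors' deposited table. Rph3a, a synaptic vesicle gene, was at -3.39 ± 0.17 in the authors' deposited table.

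Cell cycle genes fell. All 38 genes of the G2/M and mitosis list were lower after 8 h than after 1 h, at a median of -2.53 log2 units against -0.01 for all genes and a range from -3.40 to -0.87. Against control, all 38 were below at 8 h, and 18 were above and 0 below at 1 h. By class, 20 were late and 18 opposite. In the authors' deposited table the proliferation antigen Mki67 stood at -2.86 ± 0.06, the spindle motor Kif11 at -2.84 ± 0.07, topoisomerase Top2a at -2.57 ± 0.05, the kinetochore gene Cenpf at -2.89 ± 0.08 and cyclin Ccna2 at -2.75 ± 0.08 for 8 h against 1 h. Mki67 itself was at -2.81 against control at 8 h and at 0.05, not called, at 1 h in the authors' deposited table. Members that had crossed control included the authors' deposited values for Cdk1, the mitotic kinase, at -2.23 at 8 h and 0.30 at 1 h.

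Most replication genes crossed control. Of 40 genes of the G1/S and DNA replication list, 39 were lower at 8 h than at 1 h and 0 higher, with a median of -1.201. Against control, 38 were lower at 8 h, whereas 26 were higher and 1 lower at 1 h, and 26 of the 40 were in the opposite class. From 1 h to 8 h the helicase subunits Mcm5 and Mcm6 changed by -1.96 ± 0.05 and -1.42 ± 0.04, the ribonucleotide reductase subunit Rrm2 by -1.68 ± 0.04, the DNA ligase Lig1 by -1.65 ± 0.05 and Mcm3 by -1.52 ± 0.05 in the authors' deposited table. Pclaf, a PCNA-binding factor, lay at -2.54 against control at 8 h and at 0.45 at 1 h in the authors' deposited table. The homologous recombination and Fanconi anemia list had 21 of 29 genes lower (72.4%) and 2 higher (6.9%), against 32.4% and 30.3% of all genes. Its median was -0.77. In the authors' deposited table the exonuclease Exo1 was at -2.24 ± 0.09, Brca1 at -1.91 ± 0.09, Fancd2 at -2.23 ± 0.11, Fanca at -2.07 ± 0.11 and Rad54l at -1.83 ± 0.11. The excision repair and end joining list had 12 of 30 higher (40%) and 8 lower (26.7%), not far from the shares of all genes, and a median of 0.08. Its largest falls in the authors' deposited table were the replication-linked glycosylases Neil3 at -2.51 ± 0.18 and Ung at -1.99 ± 0.11, and its nucleotide excision genes Ercc5 and Ercc3 rose by 0.33 ± 0.04 and 0.32 ± 0.04, while Parp1 was at -0.44 ± 0.04.

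Regulators of the G1 phase split. Of 16 CDK inhibitor and G1 cyclin genes, 7 were higher (43.8%) and 9 lower (56.2%) at 8 h than at 1 h, against 30.3% and 32.4% of all genes. The authors' deposited table has the retinoblastoma gene Rb1 at 1.30 ± 0.05, the p21 gene Cdkn1a at 0.53 ± 0.03 and cyclin D1, Ccnd1, at 0.42 ± 0.03. Cyclin D3, Ccnd3, was at -0.78 ± 0.05, the RB relative Rbl1 at -1.06 ± 0.07 and the inhibitor Cdkn1c at -1.44 ± 0.10 in the authors' deposited table. Rb1 was above control at 8 h (1.05) and below it at 1 h (-0.25) by the authors' deposited values. Cdkn1a was above control at both times, at 1.253 at 8 h and 0.72 at 1 h in the authors' deposited table. The MYC network list had 1 of 12 genes higher (8.33%) and 6 lower (50%). Among the lower ones were Mxd3, Mxd1 at -1.08 ± 0.07 and Myc at -0.30 ± 0.04 in the authors' deposited table.

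The promoters of these groups are shown because their genes moved together. Sequences come from RefSeq's table on GRCm38.p6, which held a promoter of 250 bases before to 50 after the start for 11087 of the table's gene symbols. The first set below shows 120 bases of the promoters of the 3 G2/M genes with the smallest adjusted p that hold both a cell cycle homology region motif, TTTGAA, and a CCAAT box, CCAAT, on either strand, with both motifs in capitals. The Mki67 stretch lies at chr7:135716460-135716579 on the minus strand, Kif11 at chr19:37376293-37376412 on the plus strand and Prc1 at chr7:80294373-80294492 on the plus strand.
Mki67: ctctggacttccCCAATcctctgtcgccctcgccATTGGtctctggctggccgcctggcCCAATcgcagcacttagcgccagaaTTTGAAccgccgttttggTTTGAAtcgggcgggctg
Kif11: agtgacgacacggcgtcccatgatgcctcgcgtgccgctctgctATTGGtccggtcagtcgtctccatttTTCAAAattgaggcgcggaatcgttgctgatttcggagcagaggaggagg
Prc1: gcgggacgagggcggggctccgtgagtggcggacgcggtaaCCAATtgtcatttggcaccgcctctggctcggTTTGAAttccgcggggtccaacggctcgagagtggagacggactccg
TTTGAA or its reverse complement was found in 21 of 31 G2/M promoters (67.7%), against 14.1% of all promoters, and CCAAT in 71.0% against 43.0%. CCAAT was not particular to the G2/M list. In the other lists counted, its share ran from 41.2% for immediate-early transcription factors to 94.4% for endoplasmic reticulum chaperones. It was 70.0% for recombination and Fanconi genes and 62.5% for replication genes.

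The second set shows the 3 replication genes with the smallest adjusted p that hold an E2F-type motif, searched as TTCCCGC or TTGGCGC on both strands, in capitals. TTGGCGC can share its TTGG with a CCAAT box on the other strand. Mcm5 lies at chr8:75109296-75109415 on the plus strand, Mcm6 at chr1:128359720-128359839 on the minus strand and Lig1 at chr7:13279195-13279314 on the plus strand.
Mcm5: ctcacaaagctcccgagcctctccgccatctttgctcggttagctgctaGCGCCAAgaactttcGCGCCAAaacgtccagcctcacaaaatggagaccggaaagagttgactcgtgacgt
Mcm6: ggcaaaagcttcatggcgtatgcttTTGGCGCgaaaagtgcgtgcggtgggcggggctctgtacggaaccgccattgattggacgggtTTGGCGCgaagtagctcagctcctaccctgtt
Lig1: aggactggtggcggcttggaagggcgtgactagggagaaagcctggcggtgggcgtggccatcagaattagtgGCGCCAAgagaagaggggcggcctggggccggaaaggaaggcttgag
The E2F-type motif was in 17 of 32 replication promoters (53.1%) and in 9 of 20 recombination and Fanconi promoters (45.0%), against 14.2% of all promoters. Among G2/M promoters it was in 12.9%. These are matches of letters, not measured sites. Promoters of all genes that fell at least 2-fold held TTTGAA in 20.02% and the E2F-type motif in 14.3%, and those of genes that rose at least 2-fold held each in 11.7%.

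Histone genes and host genes of small nucleolar RNAs, both groups chosen after their values were seen, also fell. Of 23 histone genes found by symbol, 22 were lower at 8 h than at 1 h and 0 higher, with a median of -1.44, and 19 had been above control at 1 h. Among them H1f2 was at -1.87 ± 0.06, H2bc6 at -2.86 ± 0.14 and H1f10 at -1.44 ± 0.06 in the authors' deposited table. Copies of histone genes are alike and most of their transcripts lack a poly-A tail, so their values from poly-A libraries are uncertain. Host genes of small nucleolar RNAs had 10 of 16 members lower and 0 higher, with a median of -0.30.

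**Figure D2:**
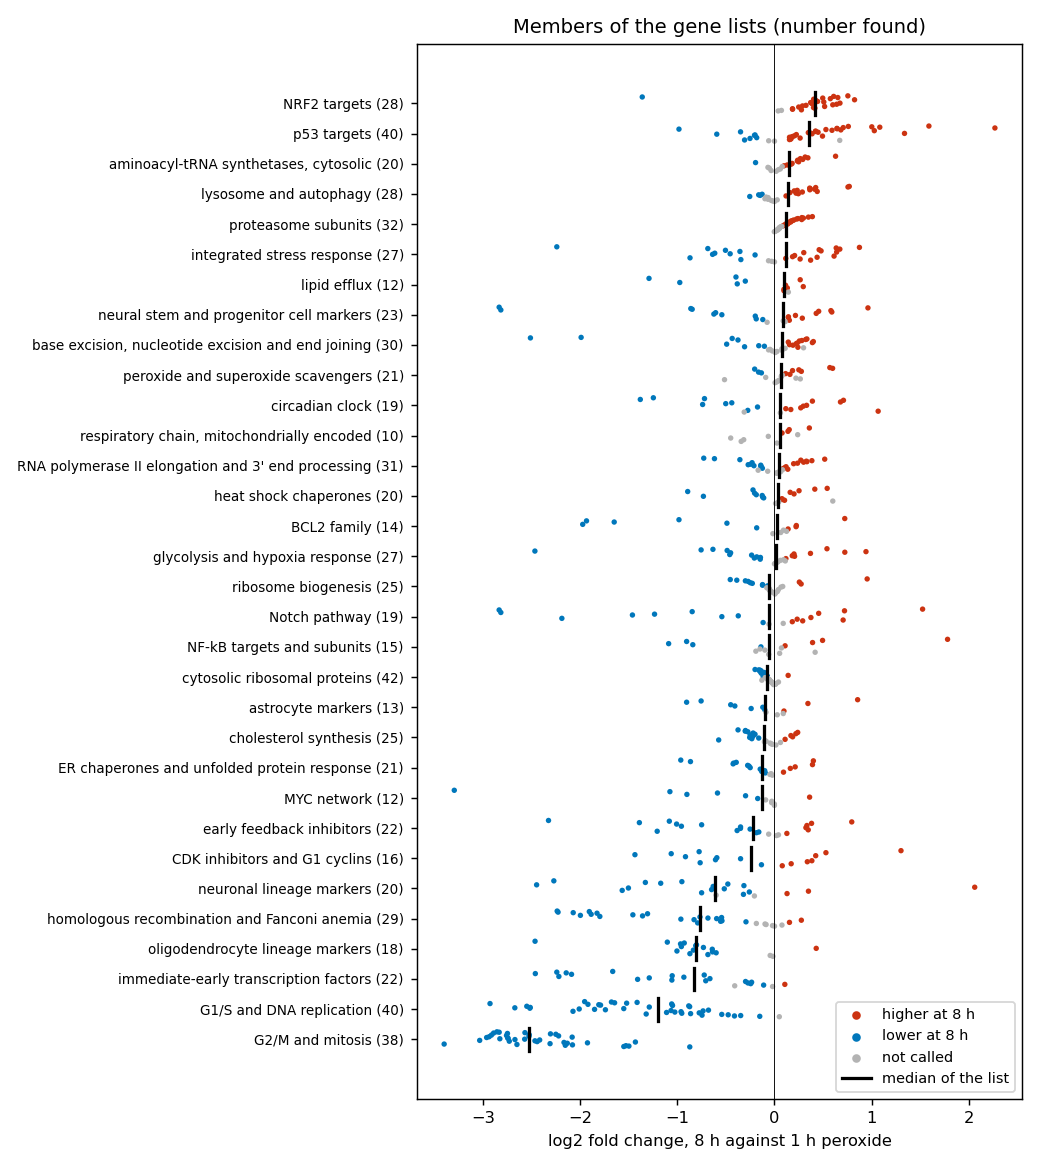
Log2 fold change of 8 h against 1 h peroxide for each member of the gene lists with at least 10 genes found, from the authors' deposited table; points are genes, coloured by call, and black lines are list medians. The G2/M list lies lowest with a median of -2.53, and the NRF2 targets highest with 0.41.

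Immediate-early transcription factor genes fell between 1 h and 8 h. Of 22 immediate-early transcription factor genes, 19 were lower and 1 higher at 8 h than at 1 h, with a median of -0.83. Relative to control, 8 were above and 6 below at 8 h, and 19 were above and 1 below at 1 h. Their classes differed: 6 had returned, 5 were opposite, 5 attenuated, 3 kept and 1 extended. The AP-1 gene Fos was at -1.41 ± 0.13 for 8 h against 1 h in the authors' deposited table, with 0.10 against control at 8 h, not called, and 1.51 at 1 h. Fosb stood at 0.63 against control at 8 h and 3.09 at 1 h, so the authors' deposited table still had it above control. The stress factor Atf3 was at 0.18, not called, at 8 h and 2.42 at 1 h against control in the authors' deposited table. The zinc finger factor Egr3 fell by 2.15 ± 0.11 and the nuclear receptor Nr4a1 by 1.67 ± 0.07 log2 units from 1 h to 8 h in the authors' deposited table. Nr4a1 ended below control, at -0.52 at 8 h and 1.15 at 1 h by the authors' deposited values, and so did Egr2, at -0.78 at 8 h and 1.31 at 1 h. Fosl1, another AP-1 gene, was kept, at 0.83 at 8 h and 0.94 at 1 h against control in the authors' deposited table.

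A half-site of the cyclic AMP response element, TGACG, was in 13 of 17 promoters of these factors (76.5%), against 34.6% of all promoters, counted on both strands. In the other lists counted, its share ran from 22.7% for NRF2 targets to 47.1% for cholesterol synthesis genes. Promoters of all genes that fell at least 2-fold held it in 26.3%, and those of genes that rose at least 2-fold in 20.6%. With promoters cut to 150 bases before the start, the shares were 58.8% for these factors and 28.6% for all. The promoters of Atf3, at chr1:191183284-191183403 on the minus strand, and Fosb, at chr7:19310044-19310163 on the minus strand, are the 2 holders with the smallest adjusted p, with the motif in capitals.
Atf3: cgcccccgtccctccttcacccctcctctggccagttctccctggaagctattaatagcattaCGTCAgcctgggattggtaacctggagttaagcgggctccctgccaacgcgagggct
Fosb: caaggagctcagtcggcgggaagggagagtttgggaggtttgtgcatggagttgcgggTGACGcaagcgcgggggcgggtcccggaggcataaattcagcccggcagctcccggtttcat

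Feedback genes, which switch early signalling off, fell more often than they rose. Of 22, 13 were lower (59.1%) and 6 higher (27.3%) at 8 h than at 1 h. The shares of all genes were 32.4% and 30.3%, and the median of the list was -0.22. The kinase phosphatase genes Dusp8 and Dusp1 were at -2.33 ± 0.08 and -1.01 ± 0.09 and the early gene Ier2 at -1.08 ± 0.07 in the authors' deposited table, and all 3 were below control at 8 h and above it at 1 h. Dusp6 and the ERK inhibitor Spred1 had been below control at 1 h and rose by 0.80 ± 0.06 and 0.38 ± 0.03 in the authors' deposited table. Gadd45b, a stress-kinase binder, was at 1.09 against control at 8 h and 2.48 at 1 h in the authors' deposited table, an attenuated rise. Spry1 was kept below control, at -0.66 at 8 h and -0.70 at 1 h by the authors' deposited values.

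Among returned genes above control at 1 h, the authors' deposited table gives Trim17, a ubiquitin ligase, -2.94 ± 0.18, the claudin Cldn15 -2.70 ± 0.17, the exonuclease Isg20 -2.55 ± 0.14, the glycosyltransferase A3galt2 -2.42 ± 0.14 and Cfap141 -2.31 ± 0.17 for 8 h against 1 h. Each of the 5 was above control at 1 h by 1.84 to 2.96 in the authors' deposited table. Among those that had fallen at 1 h, the p53-regulated long noncoding RNA Lncpint was at 0.99 ± 0.09, the 7SK RNA gene Rn7sk at 0.98 ± 0.19, the guanylate cyclase subunit Gucy1a2 at 0.97 ± 0.21, the serotonin receptor Htr1b at 0.95 ± 0.08, Shroom4 at 0.84 ± 0.07 and Dnaaf3 at 0.81 ± 0.11 in the authors' deposited table. 7SK RNA carries no poly-A tail, so its value in these libraries is uncertain. Attenuated genes above control included Osgin1, an NRF2 target, at 1.42 at 8 h and 2.78 at 1 h, and the prostaglandin synthase Ptgs2, at 0.31 at 8 h and 1.47 at 1 h, by the authors' deposited values. Those below control and attenuated included Sox7 at -0.39 at 8 h and -0.89 at 1 h in the authors' deposited table.

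**Figure D3:**
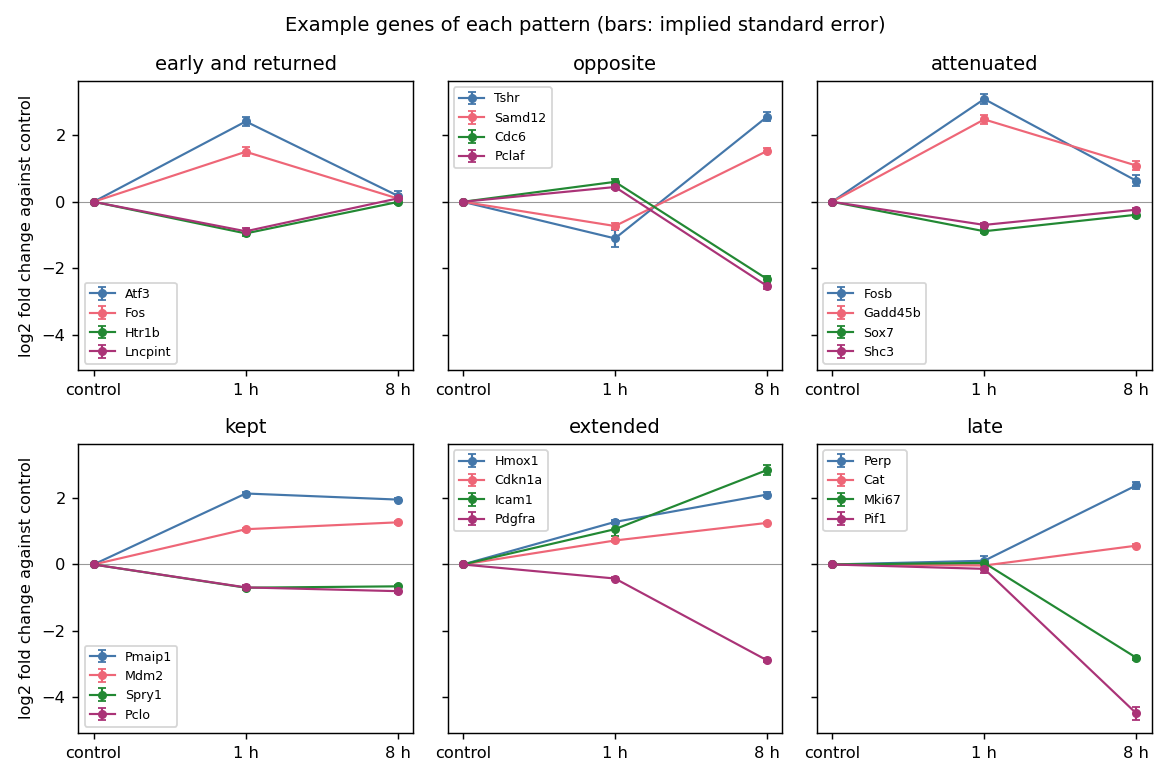
Log2 fold change against control, which is set to 0, after 1 h and 8 h of peroxide for 4 example genes of each pattern class, from the authors' deposited table; error bars are implied standard errors. Atf3 and Fos peak at 1 h, Hmox1 and Icam1 rise further by 8 h, Pmaip1 and Spry1 belong to the kept class, and Mki67 and Pif1 fall only by 8 h.

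Most p53 targets were higher still at 8 h. Of 40, 29 were higher (72.5%) and 8 lower (20%) at 8 h than at 1 h, against 30.3% and 32.4% of all genes. The list median was 0.36. Against control, 36 were higher and 1 lower at 8 h, and 30 were higher and 3 lower at 1 h. By class, 16 were extended, 10 kept and 5 late. In the authors' deposited table Dcxr, a carbonyl reductase gene, was at 1.59 ± 0.05, cyclin Ccng1 at 0.76 ± 0.03, the death receptor Tnfrsf10b at 1.00 ± 0.04, the apoptosome gene Apaf1 at 1.08 ± 0.05 and Abhd4 at 0.71 ± 0.03 for 8 h against 1 h. Apaf1 was above control at 8 h, at 0.97, and below it at 1 h, at -0.11, in the authors' deposited table. Genes of the kept class included the p53 inhibitor Mdm2, at 1.27 at 8 h and 1.06 at 1 h, and Sesn2, at 0.96 at 8 h and 1.16 at 1 h, by the authors' deposited values. Trp53inp1 was likewise kept, at 1.14 at 8 h and 1.197 at 1 h against control in the authors' deposited table.

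Within the BCL2 family, whose members promote or block cell death, genes moved both ways. The list had 4 of 14 genes higher (28.6%) and 6 lower (42.9%) at 8 h than at 1 h, against 30.3% and 32.4% of all genes. Pmaip1, which encodes NOXA, was kept at 1.95 at 8 h and 2.14 at 1 h against control in the authors' deposited table. Bbc3, which encodes PUMA, was attenuated, at 0.61 at 8 h and 1.60 at 1 h by the authors' deposited values. The BH3-only gene Bmf and the BAX relative Bok crossed control, at -1.04 and -1.47 at 8 h and 0.61 and 0.46 at 1 h in the authors' deposited table. The survival gene Bcl2l1 crossed the other way, at 0.42 at 8 h and -0.31 at 1 h against control in the authors' deposited table. Bcl2l11, which encodes BIM, was at -0.49 ± 0.06 for 8 h against 1 h in the authors' deposited table.

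NRF2 targets rose. Of 28, 25 were higher and 1 lower at 8 h than at 1 h, with a median of 0.41. All 28 were above control at 8 h, and 19 were above and 2 below it at 1 h. By class, 15 of the 28 were extended and 7 late. The authors' deposited table has glutathione reductase Gsr at 0.76 ± 0.04, the heme transporter Slc48a1 at 0.61 ± 0.03, the glutathione synthesis subunit Gclm at 0.65 ± 0.04, thioredoxin reductase Txnrd1 at 0.50 ± 0.04 and heme oxygenase Hmox1 at 0.82 ± 0.07 for 8 h against 1 h. Osgin1 was the exception at -1.36 ± 0.08. Hmox1 stood at 2.11 against control at 8 h and 1.28 at 1 h in the authors' deposited table. The antioxidant response element core, TGACNNNGC on both strands, was in 8 of 22 promoters of the list (36.4%), against 16.7% of all promoters. In the other lists counted, this core was in 16.1% (G2/M) to 35.3% (immediate-early transcription factors) of promoters. The core can overlap the AP-1 site TGACTCA. Gclm, at chr3:122245367-122245486, and Txnrd1, at chr10:82859058-82859177, both on the plus strand, are the 2 holders with the smallest adjusted p, shown with the core in capitals.
Gclm: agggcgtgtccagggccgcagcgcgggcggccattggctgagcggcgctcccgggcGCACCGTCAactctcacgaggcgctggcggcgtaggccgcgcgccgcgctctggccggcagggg
Txnrd1: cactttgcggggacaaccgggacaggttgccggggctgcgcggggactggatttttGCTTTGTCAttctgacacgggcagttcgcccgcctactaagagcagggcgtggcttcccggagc

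Of 21 genes for enzymes and cofactors that remove peroxide and superoxide, 7 were higher and 3 lower at 8 h than at 1 h, and 11 were not called. The share higher, 33.3%, was near the 30.3% of all genes, so it is no result about these genes as a group. The share lower, 14.3%, was below the 32.4% of all genes. The peroxiredoxin Prdx6 was at 0.57 ± 0.03 and catalase, Cat, at 0.60 ± 0.04 in the authors' deposited table, and Prdx2 at -0.20 ± 0.03. Catalase was at 0.57 against control at 8 h and at -0.03, not called, at 1 h in the authors' deposited table. Metal-responsive genes, a list of only 7, had 5 members higher (71.4%, against 30.3% of all genes) and 1 lower. The metallothionein Mt1 was at 0.47 ± 0.05 for 8 h against 1 h, and the zinc exporter Slc30a1 had returned at -0.87 ± 0.05 in the authors' deposited table.

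Members of the integrated stress response moved both ways. Of 27 genes, 14 were higher (51.9%) and 10 lower (37%) at 8 h than at 1 h, against 30.3% and 32.4% of all genes. Above control were 22 at 8 h and 20 at 1 h. Lower members in the authors' deposited table included the regulators Atf4 at -0.51 ± 0.04, the phosphatase subunit Ppp1r15a at -0.69 ± 0.05 and Ddit3, which encodes CHOP, at -0.64 ± 0.10. Higher members in the authors' deposited table included the translation repressor Eif4ebp1 at 0.87 ± 0.05, the amino acid transporter Slc7a5 at 0.64 ± 0.04 and asparagine synthetase Asns at 0.67 ± 0.05. Cytosolic aminoacyl-tRNA synthetases had 12 of 20 members higher (60%) and 1 lower (5%), with a median of 0.15. Cars was at 0.63 ± 0.04, Gars at 0.34 ± 0.04 and Wars1 at 0.32 ± 0.03 for 8 h against 1 h in the authors' deposited table, and 8 of the 20 were late.

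Endoplasmic reticulum chaperone genes had 13 of 21 members lower (61.9%) and 5 higher (23.8%), with a median of -0.12. Herpud1, a degradation factor, had returned at -0.97 ± 0.06, and the chaperone cofactor Sdf2l1 was at -0.87 ± 0.07 and Xbp1 at -0.42 ± 0.05 for 8 h against 1 h in the authors' deposited table, while Canx was at 0.40 ± 0.03 and Dnajc3 at -0.39 ± 0.04. Heat shock genes had 8 of 20 higher and 8 lower, 40% each against 30.3% and 32.4% of all genes. The small heat shock protein genes Cryab and Hspb8 were at 0.54 ± 0.05 and 0.42 ± 0.04, the constitutive chaperone Hspa8 at -0.22 ± 0.03 and the inducible Hspa1b at -0.89 ± 0.15 in the authors' deposited table. Hspa1a and Hspa1b are near-identical copies, so reads may be divided between them. Of 32 proteasome subunit genes, 20 were higher (62.5%) and 0 lower, with a median of 0.12, and all 32 were above control at 8 h against 17 at 1 h. The largest of these rises in the authors' deposited table were Psmd11 at 0.39 ± 0.04 and Psmd1 at 0.35 ± 0.03. Lysosome and autophagy genes had 15 of 28 members higher (53.6%) and 4 lower (14.3%). The protease Ctsd was at 0.77 ± 0.03 and the autophagy gene Wipi1 at 0.76 ± 0.05 for 8 h against 1 h in the authors' deposited table. Of 35 vacuolar protein sorting genes, a family chosen after its values were seen, 21 were higher and 3 lower, and 18 had been below control at 1 h.

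Of 42 ribosomal protein genes, 21 were lower (50%) and 1 higher (2.38%) at 8 h than at 1 h, against 32.4% and 30.3% of all genes. Their median was -0.08, and 27 were above control at 8 h and 39 at 1 h. Rpl5 was at -0.20 ± 0.04 and Rpl22 at -0.16 ± 0.03 in the authors' deposited table, and 25 of the 42 were kept. Ribosome biogenesis genes had 3 of 25 members higher (12%, against 30.3% of all genes) and 9 lower (36%, near the 32.4% of all genes). Utp20 was at 0.95 ± 0.04 and the nucleolar gene Nop56 at -0.46 ± 0.04 in the authors' deposited table. Of 10 mitochondrially encoded genes found, 4 were higher (40%, against 30.3% of all genes) and 0 lower, the largest of these ND5 at 0.36 ± 0.03 in the authors' deposited table.

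Cholesterol synthesis genes had 12 of 25 members lower (48%) and 5 higher (20%) at 8 h than at 1 h, against 32.4% and 30.3% of all genes. They were below control at both times, 22 of 25 at 8 h and 21 at 1 h, and 12 were kept. Insig1, a sterol sensor partner, was at -0.38 ± 0.06 and Acat2 at -0.30 ± 0.05, while the synthase Hmgcs1 was at 0.22 ± 0.05 for 8 h against 1 h in the authors' deposited table. The list named lipid efflux also holds lipid synthesis genes such as Fasn. It had 6 of 12 members higher (50%) and 5 lower (41.7%), against 30.3% and 32.4% of all genes. The exporter Abcg1 was at -1.29 ± 0.19 and fatty acid synthase Fasn at -0.40 ± 0.04 in the authors' deposited table. Glycolysis and hypoxia genes had 8 of 27 members higher (29.6%) and 11 lower (40.7%), against 30.3% and 32.4% of all genes. Hexokinase Hk1 was at 0.54 ± 0.04, the glycolytic regulator Pfkfb3 at -0.63 ± 0.05 and the hypoxia-induced Ankrd37 at -2.47 ± 0.25 in the authors' deposited table. Clock genes had 9 of 19 members higher (47.4%) and 8 lower (42.1%). The authors' deposited table has the repressors Per1 at -0.72 ± 0.05 and Per3 at 0.71 ± 0.06, the output factors Nfil3 at -1.248 ± 0.065 and Hlf at -1.38 ± 0.10, and Tef at 0.39 ± 0.04. Genes of the NF-kB list had 4 of 15 members higher and 4 lower, 26.7% each and near the shares of all genes, and the adhesion gene Icam1 was extended, at 2.85 against control at 8 h and 1.06 at 1 h in the authors' deposited table.

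Precursor cell genes did not move as a block. Of 23 neural stem and progenitor markers, 10 were higher and 10 lower at 8 h than at 1 h, 43.5% each against 30.3% and 32.4% of all genes. Sox2 was kept, at -0.09 at 8 h and -0.23 at 1 h against control in the authors' deposited table. Nes, an intermediate filament gene, and Egfr, a growth factor receptor gene, rose by 0.58 ± 0.04 and 0.96 ± 0.04 from 1 h to 8 h in the authors' deposited table. The Notch effector Hes5, the ligands Dll3 and Dll1 and the fatty acid binder Fabp7 were at -2.82 ± 0.19, -2.84 ± 0.11, -0.85 ± 0.06 and -0.86 ± 0.05 in the authors' deposited table. The Notch list had 8 of 19 genes higher (42.1%) and 9 lower (47.4%). Its receptors Notch3, Notch1 and Notch2 rose by 1.53 ± 0.04, 0.46 ± 0.04 and 0.38 ± 0.05, with the coactivator Maml2 at 0.72 ± 0.04, in the authors' deposited table.

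Lineage genes of oligodendrocytes and neurons fell. Of 18 oligodendrocyte lineage genes, 15 were lower and 1 higher at 8 h than at 1 h, with a median of -0.81. The precursor receptor Pdgfra was at -2.89 against control at 8 h and -0.42 at 1 h in the authors' deposited table. The myelin genes Mbp and Cldn11 were at -0.80 ± 0.06 and -0.97 ± 0.07 and the lipid enzyme Ugt8a at -1.10 ± 0.06 for 8 h against 1 h, whereas Olig2 was at 0.43 ± 0.04, in the authors' deposited table. Neuronal lineage genes had 15 of 20 members lower and 3 higher, with a median of -0.62. The synaptic gene Syt1 was at -2.27 ± 0.12, Elavl3 at -0.95 ± 0.07, the neuroblast gene Dcx at -1.33 ± 0.10 and Map2 at -0.48 ± 0.04 in the authors' deposited table. Rbfox3 was at -2.45 ± 0.24 and the vesicular glutamate transporter Slc17a7 at 2.06 ± 0.27 by the authors' deposited values. Both were near the floor, with levels of -1.80 and -1.94 log2 CPM per kilobase in the authors' deposited table. Among receptor families chosen after their values were seen, 8 of 11 GABA-A and 14 of 20 ionotropic glutamate receptor subunit genes were lower, with 0 and 3 higher, and 13 of 19 semaphorins were lower with 2 higher. The extended class below control included adhesion and ion channel genes as well: the authors' deposited table has Neto1 at -2.39 ± 0.09, Tenm2 at -2.10 ± 0.19, Lama4 at -2.02 ± 0.10, Ptprd at -1.92 ± 0.08 and Kcnd2 at -1.77 ± 0.09.

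Astrocyte markers had 3 of 13 members higher (23.1%) and 7 lower (53.8%), against 30.3% and 32.4% of all genes. The connexin Gja1 was at 0.86 ± 0.04, Aldoc at -0.76 ± 0.06 and Gfap at -0.24 ± 0.08 in the authors' deposited table. Other cell types gave few genes. All 3 microglial genes found of 12 looked for were lower at 8 h than at 1 h, among them Csf1r at -1.03 ± 0.33 and Cd68 at -0.51 ± 0.12 in the authors' deposited table. Against control, 1 was above and 0 below at 8 h, and 2 were above and 0 below at 1 h. The list medians were 0.31 at 8 h and 1.01 at 1 h, and 2 of the 3 genes averaged under 1 log2 CPM. Endothelial and mural markers had 1 of 9 higher and 3 lower, and ependymal markers 2 of 6 higher and 2 lower, counts too small to set against the shares of all genes. Among these the authors' deposited table has Esam at -1.72 ± 0.32, Foxj1 at 0.46 ± 0.06 and Ccno, a regulator of multiciliated cells, at -1.45 ± 0.12. Esam, averaging -0.33 log2 CPM, was at 0.04 against control at 8 h, not called, and 1.77 at 1 h. Ccno was above control at both times, at 1.19 at 8 h and 2.64 at 1 h, by the authors' deposited values. The part of a change in cell makeup in the lineage values was not tested.

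Genes first below and then above control spanned more of the genome than those that did the reverse. Besides Tshr and Samd12, this group included in the authors' deposited table Hmgcll1 at 1.65 at 8 h and -0.45 at 1 h, the phosphatase Ptpn14 at 1.60 at 8 h and -0.39 at 1 h, and the channel-related gene Ano3 at 1.07 at 8 h and -0.56 at 1 h. The median span from start to end of its protein-coding genes, on GENCODE M21, was 75.6 kb, against 15.2 kb for genes first above and then below control. Returned genes had a median span of 68.0 kb where they had been below control at 1 h and 12.4 kb where they had been above. Kept genes gave 61.2 kb below and 12.2 kb above control, and attenuated genes 152 kb below and 10.9 kb above. Late genes had medians of 27.7 kb below and 25.0 kb above control.

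Across all protein-coding genes the change from 1 h to 8 h was also described by span. In 8 bins of 13263 genes, 8 h against 1 h gave a median of -0.07 log2 units (95% interval over genes, which are not replicates, -0.09 to -0.06) for genes spanning up to 5.74 kb and 0.13 (0.10 to 0.14) for genes of 62.5 to 118 kb. The longest genes, from 118 kb, gave 0.09 (0.05 to 0.12). The share called higher was 17.01% in the shortest bin, 50% in the seventh and 44.8% in the last. Against control the longest bin had a median of -0.14 at 8 h and -0.25 at 1 h, and the shortest 0.04 at 8 h and 0.12 at 1 h. Among the list of RNA polymerase II elongation and 3' end processing genes, 12 of 31 were higher (38.7%) and 11 lower (35.5%) at 8 h than at 1 h, not far from the shares of all genes. Those genes included the termination factor Pcf11 at -0.73 ± 0.04, the P-TEFb inhibitor Hexim1 at -0.62 ± 0.05 and the elongation kinases Cdk12 and Cdk13 at 0.52 ± 0.04 and 0.39 ± 0.05 in the authors' deposited table. Pcf11 was at -0.11 against control at 8 h and 0.62 at 1 h, and Cdk12 at 0.18 at 8 h and -0.34 at 1 h, by the authors' deposited values.

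**Figure D4:**
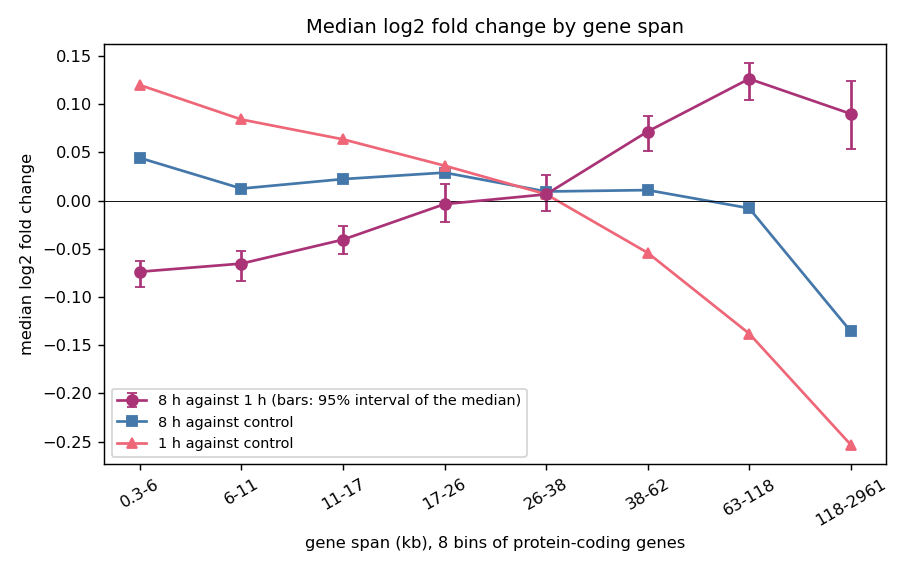
Median log2 fold change of protein-coding genes in 8 bins of gene span, for 8 h against 1 h, 8 h against control and 1 h against control, from the authors' deposited table; bars on the 8 h against 1 h line are 95% intervals of the median. The 8 h against 1 h line climbs from -0.07 in the shortest bin to 0.13 in the seventh, while the 1 h line descends from 0.12 to -0.25.

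Many genes that returned from a 1 h rise were lowly expressed and lay behind an expressed gene. Of 1070 such genes with an annotated position, 56.4% had a gene with a mean of at least 3 log2 CPM ending within 50 kb upstream on the same strand, against 36.0% of all genes. Restricted to lowly expressed genes, averaging under 2 log2 CPM, the share was 68.8% for the returned genes (95% exact interval 64.7 to 72.6, counting error only) and 34.9% for all genes. In that low range, 68.3% of the 126 genes within 1 kb of such a neighbour were lower at 8 h than at 1 h, as were 44.5% of those at 10 to 25 kb and 31.6% of those beyond 100 kb. The median log2 fold change was -0.97 within 1 kb and -0.19 beyond 100 kb. Among named genes, Cldn15 starts 0.382 kb behind Fis1, A3galt2 2.48 kb behind Phc2 and Isg20 2.22 kb behind Aen. Whether reads of the upstream transcript were counted in these genes was not tested. Noncoding classes differed among themselves in their calls for 8 h against 1 h. Of 374 lincRNA genes 157 were lower (42.0%), above the 32.4% of all genes, and 45 higher (12.0%). Antisense genes had 124 of 396 lower (31.3%), near the share of all genes, and 33 higher (8.33%, against 30.3% of all genes). Median levels were 0.53 log2 CPM for lincRNA and 0.09 for antisense genes, against 5.04 for protein-coding genes. Among the lowly expressed genes above, the share higher ran from 1.59% to 13.9% by distance. The shares higher of lincRNA and antisense genes lay within that range. Sense intronic genes had 13 of 56 higher (23.2%) and 8 lower (14.3%), both below the shares of all genes. Their median log2 fold change was 0.16, and their median level was low, at 0.42 log2 CPM.

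**Figure D5:**
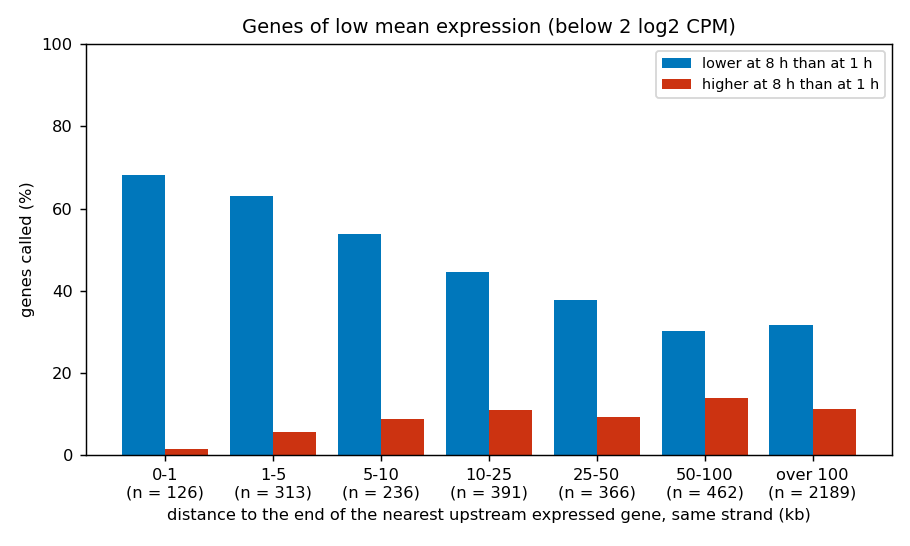
Percent of lowly expressed genes (average under 2 log2 CPM) that were lower or higher at 8 h than at 1 h, by distance to the end of the nearest expressed gene upstream on the same strand; n is the number of genes. The share of genes that were lower is 68.3% within 1 kb and 31.6% beyond 100 kb.

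Counts over hallmark gene sets, which are public lists, were deposited by the authors too, and 6 of the 50 sets, chosen after their values were seen, are given. In the authors' deposited table the E2F targets had 18 genes higher and 151 lower of 200 at 8 h against 1 h, and the G2M checkpoint set 47 higher and 125 lower of 196. TNFA signalling via NFKB had 39 genes higher and 90 lower of 168 by the authors' deposited counts. Protein secretion had 54 higher and 10 lower of 94, and the p53 pathway 91 higher and 59 lower of 189, in the authors' deposited table. The mitotic spindle set, unlike the other cell cycle sets named, had more genes called higher than lower, 94 against 71 of 197, by the authors' deposited counts. The authors' own set test nonetheless gave it the direction down, and it did not pass an adjusted p of 0.05. Of all genes, 30.3% were called higher and 32.4% lower. Over all 50 sets, 29 had more genes higher than lower and 19 the reverse in the authors' deposited table.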

How the data were processed

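RNA was measured by stranded, poly-A selected sequencing, per the labels' protocols, on the GRCm38 build per the submitters' processing notes. Per the file headers, the authors fitted the gene counts with edgeR's generalised linear model and likelihood ratio tests. Another deposited table holds their voom and limma results. Not given in the sources used here were the aligner, tool versions and the samples removed as outliers. The values used are the authors' deposited log2 fold changes and mean log2 CPM, their test statistics (a score), their p-values, and other columns such as exon length, calls and set counts. The files hold 0 columns with values of single samples, so depth and replicate spread are unknown here and the planned use of deposited results stands in for a fit.

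Implied standard errors were obtained as the size of each log2 fold change over the root of its likelihood ratio, and 95% intervals 1.96 of them. Genes in the kept class were assigned before the attenuated and extended classes. The class rules were run on simulated shifts of at least 2-fold in genes averaging at least 3 log2 CPM. Most classes here had smaller median shifts, for example 0.22 log2 units against control at 8 h for kept genes above control. How well the rules place such smaller shifts was not tested. Symbols, spans and neighbours came from GENCODE M21, promoters from RefSeq. Python 3.11.15, pandas 2.3.3, numpy 2.4.6, scipy 1.17.1 and matplotlib 3.10.9 were used.

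The genes named were the 10 highest and 10 lowest called log2 fold changes with a mean of at least 1 log2 CPM, up to 6 per class and direction, up to 5 members per list by adjusted p, and Hmox1, Cdkn1a, Fos, Cat, Sox2, Mki67 and Hmgcs1. Other genes named, among them Nes, Cdk1, Dusp1, Atf4, Ddit3, Ccnd1, Notch1, Notch2, Olig2, Slc17a7, Rbfox3, Gfap, Cdk13 and the histone genes, were chosen after their values were seen. The members and lists were chosen with earlier results of these data known. Some genes that the rule selects are not reported here. Of 818 list entries, 784 were found.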

Additional observations from a re-analysis of the deposited data

Results flagged for a closer look

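A change of sign between exposure times drew attention in 1500 genes. Below control at 8 h and above it at 1 h were 619 genes, and above control at 8 h and below it at 1 h were 881. The class rule also asked that the authors' call of 8 h against 1 h pass an adjusted p of 0.05. That all of these genes pass it follows from the rule and is no further support. The 3 comparisons share samples. Values of single samples were not used here, so samples that stand apart within a group were not looked for.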

How the results depend on the processing

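No paired analysis was possible because the deposited tables hold no value for single samples, and for the same reason leaving out each replicate was not run. The effect of a term for the animal on the authors' calls was not tested. The authors' voom and limma table gave 4471 genes higher and 4782 lower at 8 h than at 1 h, of which 9200 were called the same way in both tables and 0 the opposite way. An adjusted p below 0.01 left 962 opposite and 130 attenuated genes, and of the called genes that the text names Fosl1 lost its call. Asking for a 2-fold change left 261 genes higher and 1439 lower. Asking for 1.5-fold in each call left 647 early and returned, 130 opposite, 31 attenuated, 27 kept, 53 extended and 1761 late genes. These falls follow from stricter thresholds. A neighbour within 10 kb in place of 50 kb was found for 45.1% of lowly expressed returned genes, 31.1% of those lower at least 2-fold and 16.5% of all. With a mean of at least 3 log2 CPM the shortest genes had a median of -0.040 log2 units and the longest 0.160. Promoters cut to 150 bases before the start held TTTGAA in 8.19% and the E2F-type motif in 10.7% of all genes. The other counts over all genes, by class and direction, stayed within 1.5 times their value. With a mean of at least 1 log2 CPM, however, more genes were higher (4452) than lower (3903), the reverse of the main counts. Of 72 counts by list and direction, 6 moved by more than that at an adjusted p below 0.01, 2 in the voom and limma table and 6 with a mean of at least 1 log2 CPM.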
